A study of Mus musculus with 4 samples.

Results

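Z-disc genes of the heart muscle cell were followed across the 4 arrays of the series, together with the genes of desmin and alpha-B-crystallin. The 10 genes were fixed by name (Myot, Mypn, Actn2, Tcap, Ldb3, Nebl, Myoz2, Pdlim5, Des and Cryab) out of 16390 genes with a symbol, and each was read from its 1 probe on the platform. For 9 of them the platform gives the current symbol, and the Nebl probe carries an older clone name that the mouse gene table lists as a synonym. Every array gave a value for 9 of the genes, and these 9 also passed the filter on dim genes. The exception was Tcap, whose probe had a value on STIM1KO sham alone, a deposited intensity of 1.41, so that nothing is given for it below. Tcap encodes telethonin, which caps the ends of titin in the Z-disc.

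The arrays held total RNA from left ventricles of male C57BL/6 mice, either wild type (WT) or labelled STIM1 KO (STIM1KO). Each genotype was taken after a sham operation and after transverse aortic constriction (TAC), in which a ligature around a wire of 0.3 mm narrows the aorta and loads the ventricle with pressure. Mice were operated on at 10 weeks and hearts taken 4 weeks later, at 14 weeks. Heart weight over body weight, averaged per group and stated in the labels without a unit, was 4.1 and 6.7 in WT after sham and TAC, and 4.5 and 4.9 in STIM1KO. The labels do not say which allele removes STIM1, the calcium sensor of the endoplasmic reticulum, in which cells it is lost, or whether RNA was pooled. Each group was a single array, so the values have no replicates and no test was made, and every difference below is between 2 arrays.

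The Z-disc is the boundary between neighbouring sarcomeres, where alpha-actinin crosslinks the barbed ends of actin filaments from both sides. Scaffold proteins with PDZ, LIM or immunoglobulin domains bind alpha-actinin there and carry signalling enzymes such as calcineurin and protein kinase C. Desmin filaments tie the Z-discs of adjacent myofibrils to each other and to the cell membrane, and alpha-B-crystallin, a small heat shock protein, is the chaperone of desmin. Mutations in several of these genes cause human cardiomyopathy and myofibrillar myopathy.

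The 3 promoter windows shown here, 1 for each gene, belong to the members that hold a MEF2-type motif. Each runs from 250 bases before to 50 bases after the annotated start in RefSeq on GRCm38.p6, 5′ to 3′ on the gene's own strand, with the motif (CTA, any 4 bases, TAG) in capitals. MEF2 factors are muscle transcription factors that bind A/T-rich sites of this outline, and the letters used here also admit G and C in the middle.
Ldb3 (chr14:34588632-34588931, minus strand): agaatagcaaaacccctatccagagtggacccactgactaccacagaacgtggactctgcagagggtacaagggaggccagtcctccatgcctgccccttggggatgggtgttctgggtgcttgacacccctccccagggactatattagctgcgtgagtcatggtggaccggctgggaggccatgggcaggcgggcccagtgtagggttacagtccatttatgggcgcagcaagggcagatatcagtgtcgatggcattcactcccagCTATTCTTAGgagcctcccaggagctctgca
Myoz2 (chr3:123034938-123035237, minus strand): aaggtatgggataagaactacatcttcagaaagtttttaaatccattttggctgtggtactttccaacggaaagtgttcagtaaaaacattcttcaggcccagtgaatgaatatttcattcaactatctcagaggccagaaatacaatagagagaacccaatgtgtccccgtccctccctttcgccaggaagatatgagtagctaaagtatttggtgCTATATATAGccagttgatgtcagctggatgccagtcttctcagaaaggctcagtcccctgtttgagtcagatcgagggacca
Des (chr1:75360042-75360341, plus strand): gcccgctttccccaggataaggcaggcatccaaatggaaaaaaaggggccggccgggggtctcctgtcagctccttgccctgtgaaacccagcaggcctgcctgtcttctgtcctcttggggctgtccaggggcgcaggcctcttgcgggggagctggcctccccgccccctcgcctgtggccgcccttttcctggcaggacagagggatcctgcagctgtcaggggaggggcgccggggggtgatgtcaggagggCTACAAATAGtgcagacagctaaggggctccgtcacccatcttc

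In the windows shown, the motif began 33 bases before the annotated start in Myoz2, at base 7 of the annotated transcript in Des and at base 20 in Ldb3. Searched on both strands, it was present in 4 of the 12 windows searched, which belong to 3 of the 7 member genes covered (Actn2, Des, Ldb3, Myoz2, Mypn, Nebl and Pdlim5). Of the 4, 2 are overlapping windows of Ldb3 that hold the same site. Cryab, Myot and Tcap were not searched. The motif was present in 3.69% of all 32851 windows of the table. The muscle M-CAT motif CATTCC was found in 2 of the 12 windows, in Mypn and Nebl, and in 14.7% of all windows. The GATA motif GATAAG was likewise found in 2, in Des and Myoz2, and in 7.44%. TATAAA was found in 2, in Mypn and Pdlim5, each on the strand opposite to the gene, and in 13.6%. The heat shock element outline GAANNTTC was found in none of the 12 and in 7.86% of all windows. The E-box CANNTG and a loose CArG outline (CC, any 6 bases, GG) were found in 8 and 9 of the 12 windows, and in 72.3% and 73.3% of all windows, so they distinguish little. A match here is a string of letters and says nothing about binding.

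Values below are intensities after quantile normalization between arrays, and differences are on the log2 scale of those intensities, where 1 is a 2-fold difference. The background is the 7020 genes measured on every array with a mean intensity of at least 29.3. As a yardstick of error, 50 other genes with 2 probes above that level gave an error SD of a single probe. It was 0.27 for the response to TAC in WT, 0.42 for that in STIM1KO, 0.29 between the sham arrays and 0.38 between the TAC arrays. This covers disagreement between probes of a gene and not the spread between mice. Differences at or beyond it were common, in 24.2%, 28.9%, 27.4% and 34.7% of the 7020 genes in the same order. The STIM1KO TAC array stood apart from the rest: the SD of the differences over all 7020 genes was 0.42 in both comparisons that use it, 0.25 in the WT response and 0.29 between the sham arrays. Stim1 itself read 41.6 and 33.9 in WT after sham and TAC, and 20.7 and 13.8 in STIM1KO, below the filter level on average.

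The tissue label was checked against heart muscle genes. Of 12 cardiomyocyte markers, 11 were measured on every array. Their summed intensity was 195354 and 203321 in WT after sham and TAC, and 213174 and 234187 in STIM1KO. Myl2 and Tnnt2 contributed most. Quantile normalization sets such values by rank, with wide steps among the brightest genes. Myl2 had 58221 on both WT arrays and on STIM1KO sham. Tnnt2 had 38759 on STIM1KO sham and took that same 58221 on STIM1KO TAC, so this sum largely follows rank. Summed over 7 endothelial markers, the intensity was 3568, 3261, 2524 and 2178 on the same arrays. Over 8 fibroblast markers it was 4758, 4202, 3611 and 2803, and over 8 macrophage markers 2161, 2310, 1909 and 2464. Over 6 smooth muscle and pericyte markers it was 1629, 1339, 1728 and 985, and over 4 atrial markers 1459, 1733, 1286 and 1169, nearly all of it Nppa (1423, 1685, 1250 and 1137), the natriuretic peptide gene, with Myl4 at most 32.3. Alas2, the 1 erythroid marker measured, had 73.2, 69.2, 68.3 and 118. The endothelial, fibroblast and smooth muscle sums were thus lowest on STIM1KO TAC. Myot, Actn2, Pdlim5 and Des were highest on that array, and Mypn, Ldb3 and Nebl were lowest. Of all 7020 genes, 37.4% were highest there and 36.1% lowest. Taken singly, 6 of the 7 endothelial markers were lowest there, but only 4 of the 8 fibroblast and 3 of the 6 smooth muscle markers. Of the 11 cardiomyocyte markers, 5 were lowest and 4 highest on STIM1KO TAC, although their sum was highest there. The fibroblast sum rested on Dcn, the collagen-binding proteoglycan decorin, which had 3280, 2880, 2407 and 1434. Col1a2, a chain of type I collagen, was highest on STIM1KO TAC instead, at 198, 190, 128 and 317, and Col3a1 had 748, 641, 611 and 593. Acta2 (smooth muscle actin) and Rgs5 (of pericytes) passed 2-fold lower with STIM1KO TAC, at -1.09 against STIM1KO sham and -1.23 against WT TAC. The endothelial receptor Flt1 was lowest on STIM1KO sham (-1.01 against WT sham), and Egfl7 had 1845, 1921, 1407 and 1195. C1qb and C1qa, the brightest macrophage markers, had differences between -0.23 and 0.33. Csf1r, the macrophage growth factor receptor, was dim on average and had 7.93, 26.2, 11.7 and 73.8, the order of Myot. Among other dim markers, Cdh5 (-1.40), Cx3cr1 (-1.15) and Ryr2 (-1.01) were lower on STIM1KO TAC than on WT TAC, and Sln was at 3.96 or below. The part of these markers in the results was not tested. In RNA from whole ventricle, fewer cells of a type and less RNA per cell cannot be told apart.

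**Figure D1:**
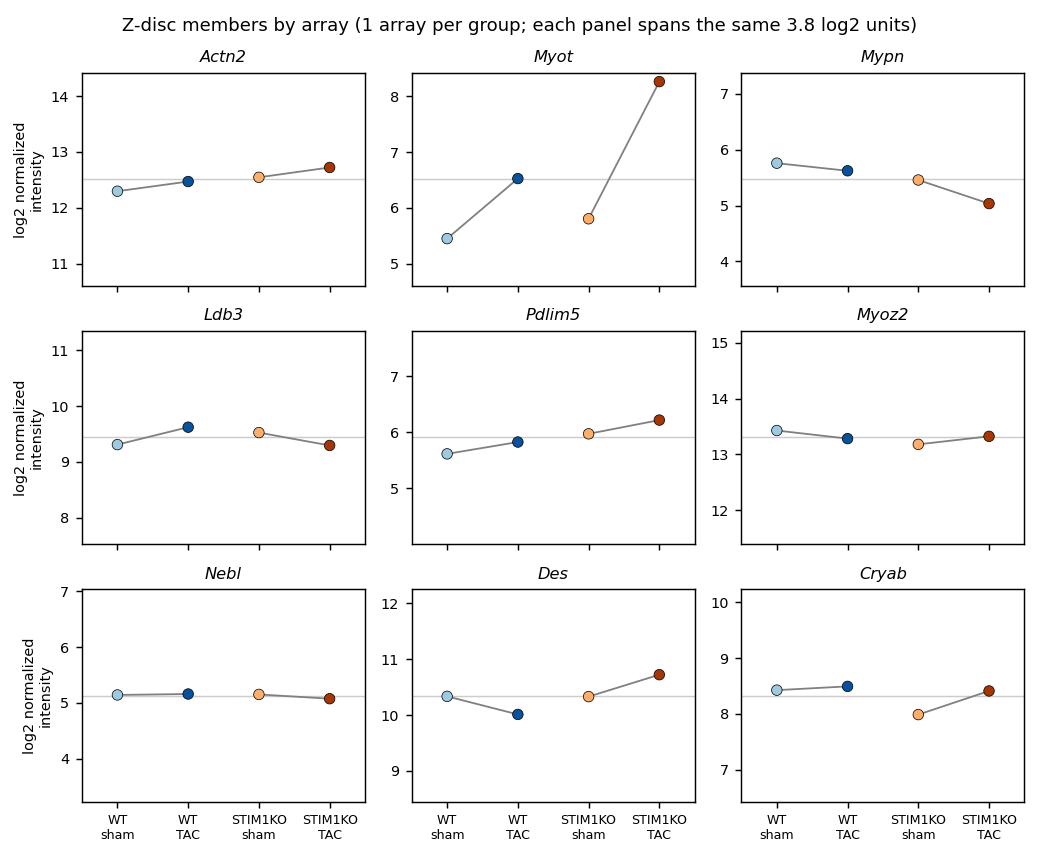
Log2 normalized intensity (y axis) of the 9 measured members on the 4 arrays (x axis), 1 point per array, with lines joining sham and TAC of a genotype and a grey line at the mean. All panels span the same number of log2 units. Myot climbs from 5.45 in WT sham to 8.26 in STIM1KO TAC, while Nebl is nearly flat.

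Among the proteins that crosslink or bundle actin with alpha-actinin, Myot stood out. It encodes myotilin, an immunoglobulin-domain protein that binds alpha-actinin, filamin and actin. In WT its intensity was 43.8 after sham and 92.1 after TAC, and in STIM1KO it was 56.0 and 307. Both TAC arrays were above both sham arrays, and the STIM1KO TAC array was far above the other three. The log2 difference was 1.07 for the response to TAC in WT (2.11-fold, rank 5 from the top of 7020 genes) and 2.46 for that in STIM1KO (5.48-fold, rank 1). Between genotypes it was 0.35 after sham and 1.74 after TAC (3.33-fold, rank 4). These are 3.99, 5.78, 1.23 and 4.56 times the error SD of a single probe. The response in STIM1KO exceeded that in WT by 1.38, a difference that was not tested.

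Myotilin is abundant in skeletal muscle, so markers of that tissue were read beside it. Of 14 skeletal muscle markers, 10 were measured on every array. Their summed intensity was 8056 and 7733 in WT after sham and TAC, and 7261 and 5483 in STIM1KO. Most of this sum was Ckm, the muscle creatine kinase, which the heart also expresses and which was lowest on STIM1KO TAC, at 4720 against at least 6418 on the other arrays. Taken singly the markers did not move together. On STIM1KO TAC 5 of the 10 were highest, as Myot was and as 37.4% of the 7020 genes were. One of these, the fast troponin gene Tnni2, passed the filter, with 47.5, 38.6, 41.1 and 51.3. The others were dim: Tnnc2 had 5.49, 4.65, 5.88 and 10.9, Myh4, a fast myosin heavy chain, had 2.85, 2.82, 3.54 and 6.21, and Tnnt3 and Actn3 reached 6.48 and 7.37. Between the TAC arrays Tnnc2 differed by 1.23 and Myh4 by 1.14. Myl1, a fast myosin light chain, was highest on WT sham, at 1428, 841, 451 and 539, and Mybpc2, a fast myosin-binding protein, was lowest on STIM1KO TAC, at 73.6, 108, 128 and 66.4. The part of skeletal muscle RNA in the Myot values was not tested. Probes of Myh1, Atp2a1 and Mybpc1 had an empty cell on at least 1 array.

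Actn2, which encodes the sarcomeric alpha-actinin of heart muscle, had intensities of 5030 after sham and 5672 after TAC in WT, and of 5976 and 6752 in STIM1KO. The response to TAC was alike on the log2 scale in the 2 genotypes, at 0.17 in WT and 0.18 in STIM1KO, and so was the genotype difference, at 0.25 after sham and 0.25 after TAC. All 4 are smaller than the error SD of a single probe. Palladin family member Mypn, or myopalladin, which links nebulin family proteins to alpha-actinin, ran the other way. Its intensity was 54.1, 49.3, 43.9 and 32.8 on the arrays in the same order, a descent from WT sham to STIM1KO TAC. TAC differed from sham by -0.14 in WT and -0.42 in STIM1KO. STIM1KO differed from WT by -0.30 after sham and -0.59 (1.50-fold lower) after TAC. The last was 1.54 times the error SD, and -0.46 with each array centred on the median level of the cardiomyocyte markers.

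**Figure D2:**
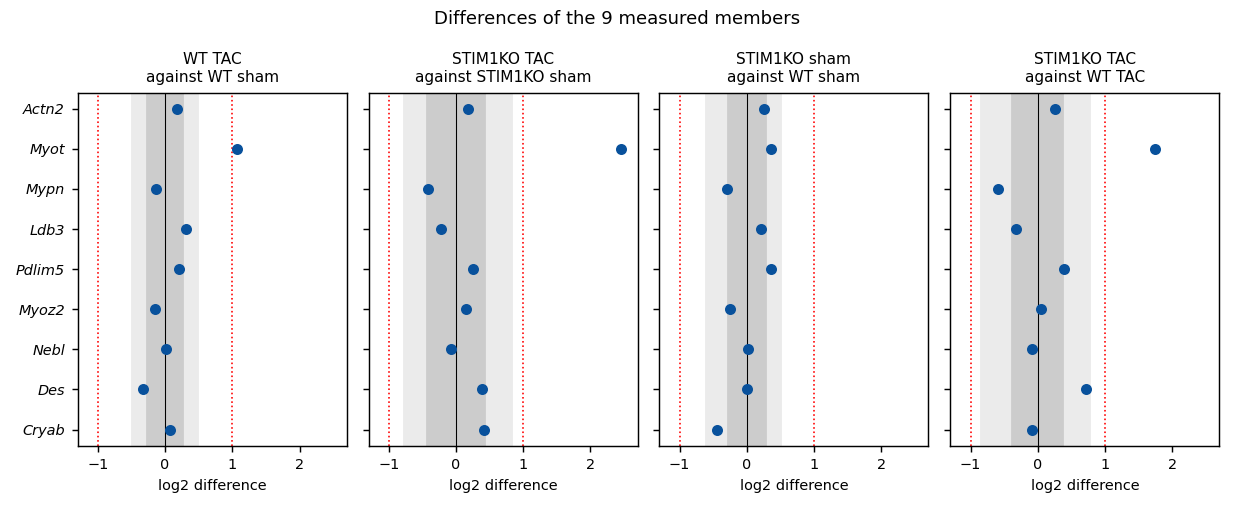
Log2 differences (x axis) of the 9 members (y axis) in the 4 comparisons. The dark band is the error SD of a single probe either way, the light band holds the central 95% of all 7020 genes, and the dotted lines mark 2-fold. Myot alone lies beyond 2-fold, in 3 of the 4 panels.

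The PDZ and LIM domain scaffolds did not move alike. Pdlim5, also called ENH, tethers protein kinase C to the Z-disc. It read 49.0 and 56.8 in WT after sham and TAC, and 62.8 and 74.5 in STIM1KO, the same order as Actn2. Its differences were 0.21 and 0.25 in the WT and STIM1KO responses, and 0.36 and 0.39 between genotypes after sham and after TAC. The genotype differences lay at 1.25 and 1.03 times the error SD. The order shared by Actn2 and Pdlim5 was that of 9.74% of the 7020 genes, and the reverse order shown by Mypn that of 10.2%.

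Ldb3, which encodes the scaffold cypher or ZASP, had its highest value on WT TAC. WT intensities were 635 after sham and 788 after TAC, and those of STIM1KO were 737 and 628. TAC differed from sham by 0.31 in WT and by -0.23 in STIM1KO, and the genotypes by 0.22 after sham and -0.33 after TAC. The WT response is 1.16 times the error SD and the STIM1KO response 0.54 times, and the latter turned to 0.10 with arrays centred on the cardiomyocyte markers. The 2 lowest arrays, WT sham and STIM1KO TAC, lay side by side.

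Myoz2 encodes calsarcin-1, which holds calcineurin at the Z-disc and restrains it. Intensities in WT were 11025 after sham and 9973 after TAC, beside 9286 and 10259 in STIM1KO. The differences, -0.14 and 0.14 in the WT and STIM1KO responses, -0.25 between the sham and 0.04 between the TAC arrays, were all below the error SD. Nebl encodes nebulette, the nebulin family protein that anchors cardiac thin filaments in the Z-disc. It had 35.4, 35.8, 35.6 and 33.8 on the 4 arrays, a range of 0.084 on the log2 scale. A range that small or smaller was seen in 0.641% of the 7020 genes. The values lie little above the filter level of 29.3, and how well this probe reports the transcript was not tested.

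Desmin and its chaperone differed in pattern. Des stood at 1292 after sham and 1032 after TAC in WT, and at 1288 and 1690 in STIM1KO. The sham arrays were within 0.004 of each other on the log2 scale, and the TAC arrays lay on opposite sides of them. TAC differed from sham by -0.32 in WT and 0.39 in STIM1KO, 1.20 and 0.92 times the error SD. The TAC arrays differed by 0.71 (1.64-fold higher in STIM1KO, 1.87 times the error SD). Over the alternatives run, the difference between the TAC arrays lay between 0.58, with median centring and just short of 1.5-fold, and 0.84, centred on the cardiomyocyte markers. Cryab, alpha-B-crystallin, had 344 and 361 in WT after sham and TAC, and 254 and 341 in STIM1KO. Here a single low array, STIM1KO sham, set the differences: -0.44 against WT sham and 0.42 in the STIM1KO response, beside 0.07 in the WT response and -0.08 between the TAC arrays. The difference between the sham arrays was 1.52 times the error SD, and the STIM1KO response 0.996 times.

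Read as a list, the 9 members had 1 at or above 2-fold higher in the WT response, where 0.0997% of all genes reached it, and none lower (background 0.185%). In the STIM1KO response it was again 1 higher (background 1.25%) and none lower (0.598%). Between the sham arrays none reached 2-fold (0.0285% higher and 0.527% lower). Between the TAC arrays 1 was higher (0.883%) and none lower (1.08%). Each of these calls was Myot. Median differences of the 9 were 0.07, 0.18, 0.01 and 0.04 in the order above, beside -0.01, -0.005, 0.001 and 0.01 for all genes. At 1.5-fold the comparison of the TAC arrays added Des as higher (background 6.3%) and Mypn as lower (8.22%). The responses had opposite signs in 4 members, Ldb3, Nebl, Myoz2 and Des, against 39.4% of all genes, which is near the background. Nebl lost its opposite sign under median centring, with values as deposited, centred on cardiomyocyte markers and with quantiles over all probes, and Ldb3 lost it centred on cardiomyocyte markers, where Mypn gained one.

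**Figure D3:**
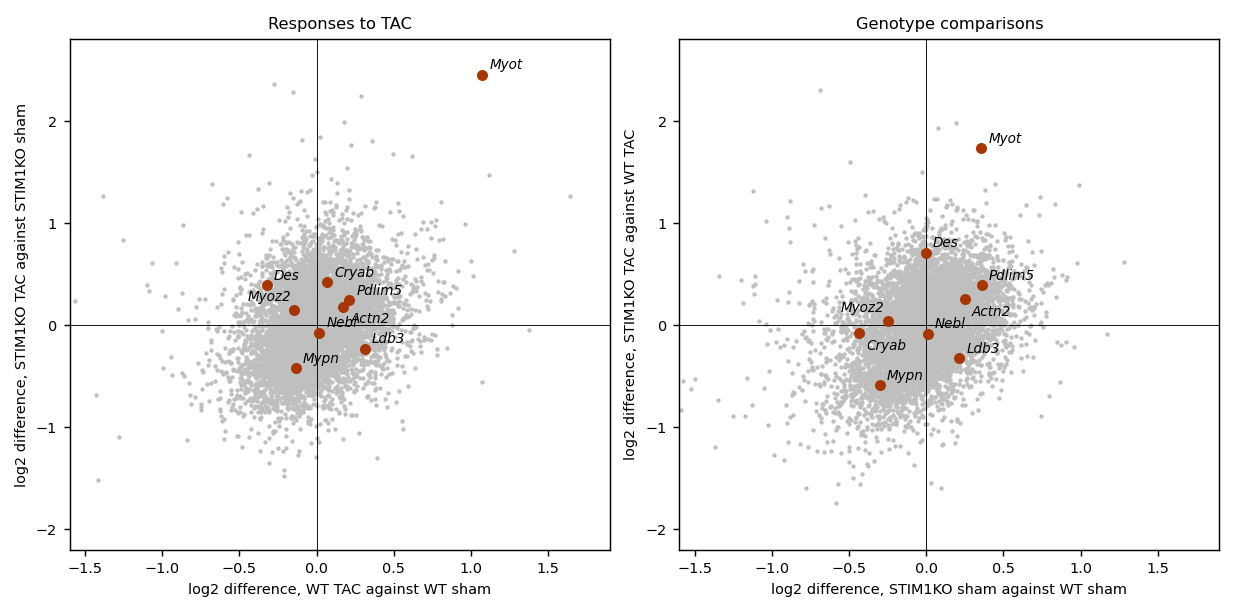
Left, the STIM1KO response to TAC (y axis) against the WT response (x axis), both as log2 differences. Right, the genotype difference after TAC (y axis) against that after sham (x axis). Grey points are the filtered genes within the axes (5 and 12 lie outside), red points the members, and no array is shared by the 2 axes of a panel. Myot sits at the top of the left panel and near the top of the right one, where it ranks 4. Des is high in the right panel at a sham difference near 0.

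Other genes of the Z-disc were taken from a list of 26, of which 23 were measured on every array and 13 passed the filter. In the WT response 12 of the 13 were below 0 (background 52.5%), with a median of -0.19, and none reached 1.5-fold. In the STIM1KO response 8 were below 0 (background 50.5%), with a median of -0.34. At 1.5-fold 5 were lower (background 7.09%) and 1 higher (7.32%). Counts for this list and for those below were not rerun under the alternatives. Pdlim3, the actinin-associated LIM protein ALP, had 38.6 and 29.9 in WT after sham and TAC, and 54.3 and 29.0 in STIM1KO. Both its sham values exceeded both TAC values, with differences of -0.37 and -0.91. The same held for Ankrd1, the stretch-responsive ankyrin repeat protein CARP, with differences of -0.36 and -0.81 and 4270 on STIM1KO TAC. Palld, palladin, the relative of Mypn, descended in the same order as Mypn, from 686 through 546 and 532 to 325, and Pdlim4 did so from 183 to 95.8. Csrp3, the muscle LIM protein, was between 10259 and 11106 on 3 arrays and 16010 on STIM1KO TAC. Capza2, a subunit of the CapZ protein that caps actin barbed ends, was low on STIM1KO sham, at 207 against 368, 299 and 347. At 2-fold, none of the 13 was called in any of the 4 comparisons. Of the dim genes below the filter, Myoz3 (-1.47 in the STIM1KO response) and Sorbs2 (1.08 between the sham arrays) passed 2-fold at intensities under 6, while Actn1 and Actn3, other alpha-actinins, differed by 0.90 and 0.92 between the TAC arrays.

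**Figure D4:**
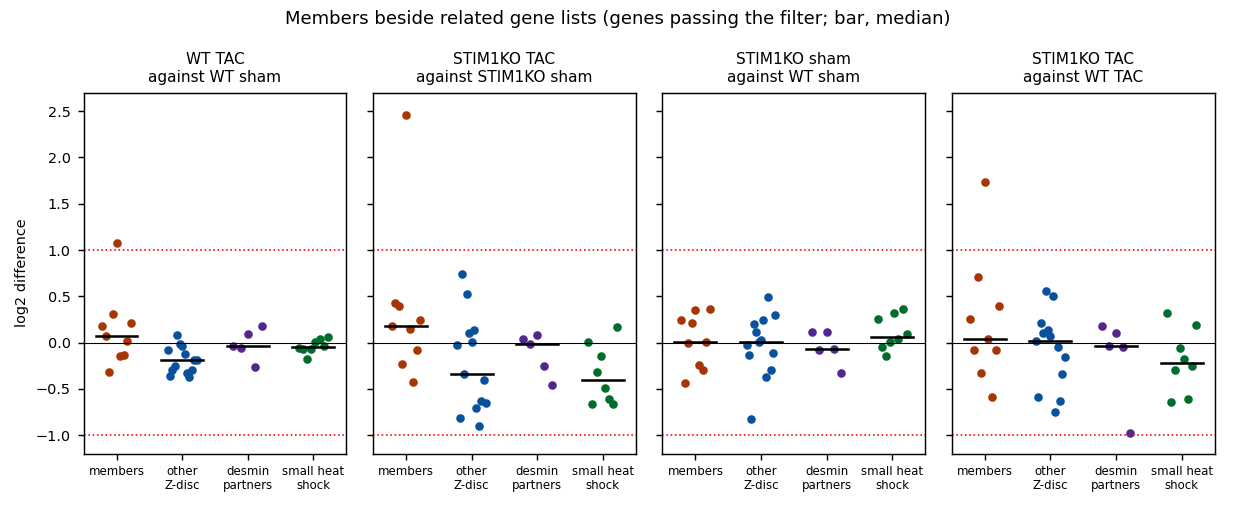
Log2 differences (y axis) of the genes passing the filter in each list (x axis: 9 members, 13 other Z-disc genes, 5 desmin filament partners, 8 small heat shock proteins and co-chaperones), 1 panel per comparison. Bars are medians and dotted lines 2-fold. In the STIM1KO response the members' median is 0.18 and that of the small heat shock list -0.40.

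Of 10 desmin filament partners listed, 5 passed the filter. Between the TAC arrays their median was -0.03, with 1, Vim, at 1.5-fold lower (background 8.22%). Plec, the plectin linker that binds desmin, had differences between 0.08 and 0.12 in the 4 comparisons, and Dsp, the desmoplakin anchor of the intercalated disc, between -0.03 and 0.18. Sync, syncoilin, was at -0.27 in the WT response and -0.25 in that of STIM1KO. Vim, the vimentin filament of fibroblasts and endothelial cells, had 1553 and 1758 in WT after sham and TAC, and 1233 and 894 in STIM1KO. Its differences were -0.46 in the STIM1KO response, -0.33 between the sham arrays and -0.98 between the TAC arrays, where Des was at 0.71. Of the dim partners, Synm was at -0.71 in the WT response, and Lmna, a nuclear lamin gene, at 0.57 there and -0.67 in the STIM1KO response. The fibroblast and endothelial sums were lowest on that same STIM1KO TAC array, and their part was not tested.

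Small heat shock proteins, the family of Cryab, were listed with their co-chaperones, and 8 of the 10 genes passed the filter. Between STIM1KO TAC and STIM1KO sham 6 of the 8 were below 0 (background 50.5%), with a median of -0.40. The 2 above 0 were both co-chaperones. At or beyond 1.5-fold lower were 3 (background 7.09%). Hspb8, the partner of the co-chaperone Bag3, had 5009 and 4873 in WT after sham and TAC, and 6448 and 4078 in STIM1KO, a difference of -0.66 in the latter. Hspb1 was at 3985, 3804, 3858 and 2441, with -0.66. Hspb7, the cardiovascular small heat shock protein, was at 1377, 1411, 1411 and 926, with -0.61. Cryab, at 0.42 in this response, lay on the other side of 0 from these 3, but just within the error SD. In the WT response none of the 8 reached the error SD, and the differences ran from -0.18, in Hspb2, to 0.06, with Hspb3 at -0.07. The dim co-chaperone gene Dnajb6 was at -0.31. Hspb6, the heat shock protein Hsp20, was highest on STIM1KO sham, at 3901 against 3132, 3152 and 2782.

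**Figure D5:**
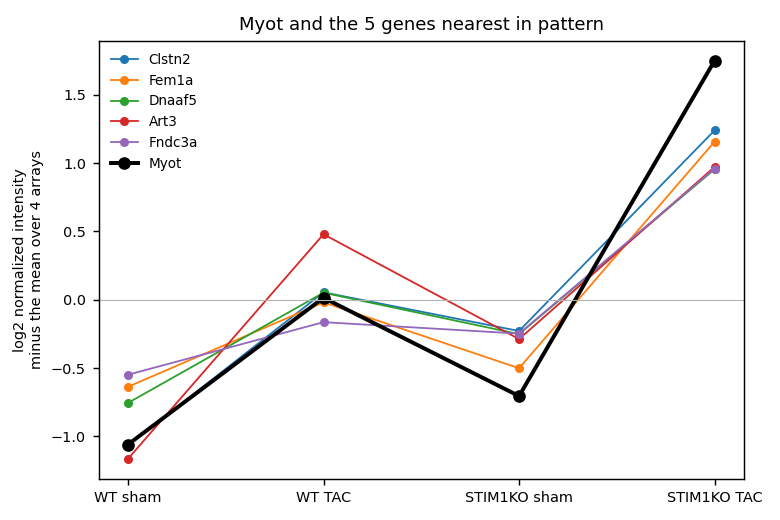
Log2 normalized intensity minus the gene's own mean (y axis) on the 4 arrays (x axis) for Myot, in black, and the 5 filtered genes closest to it. All 6 have their lowest value on WT sham and their highest on STIM1KO TAC, as do 16.6% of the 7020 genes. The 5 were picked for nearness to Myot on these same values.

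The genes whose pattern over the 4 arrays was nearest to Myot were found by the distance between log2 values centred on each gene's mean. They were Clstn2 (distance 0.70), Fem1a (0.76), Dnaaf5 (0.97), Art3 (1.003) and Fndc3a (1.06). Clstn2, a calsyntenin, had 15.1 and 32.9 in WT after sham and TAC, and 27.0 and 74.8 in STIM1KO. Art3, an ADP-ribosyltransferase family member, had 578, 1805, 1061 and 2542. With 4 arrays, a likeness of this kind is a description of these arrays only.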

How the data were processed

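Left ventricular RNA was measured on 4 arrays, 1 per group, assigned by title. Per the labels' protocols, amino allyl RNA was amplified from it and coupled to Cy5. The authors deposited 1 linear intensity per probe, scaled to a median of about 20.0 per array. Scanning, background removal and the reason for empty cells are not stated in these sources. Of 23473 probes, 19607 had a value on all arrays, and between 21115 and 21782 on each.

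Over these shared probes, intensity values were quantile normalized (limma 3.58.1, R 4.3.3) and taken to log2. The brightest probe stood for a gene, and 3947 symbols were updated through synonyms (GRCm38.p6 table). Genes with a mean at or above the median of 4.87 (log2) were kept. The normalization and the calls at 2-fold were tested on simulated arrays with known differences. The number of arrays limits the precision. Members and lists were chosen with earlier results of these data known. Named beside the 10 members are list genes at 2-fold in any comparison or among the 2 largest differences of 1, markers at 2-fold or among the 2 brightest of their list, and the 5 nearest patterns. The rule did not say whether dim genes count, so it was read both with and without them. Other list genes named (Csrp3, Tnni2 and Tnnt3) fall outside it, having been picked with their values in view.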

Additional observations from a re-analysis of the deposited data

Results flagged for a closer look

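In 4 members the single TAC array lay on opposite sides of its sham array in the 2 genotypes, which 39.4% of all 7020 genes also did. Subtracting the WT response from the STIM1KO response gave 0.72 for Des, -0.54 for Ldb3, 0.29 for Myoz2 and -0.093 for Nebl. These differences were not tested, since each rests on 1 array per group. Those of Des and Ldb3 are 1.79 and 1.36 times the error SD of a single probe for this quantity. Those of Myoz2 and Nebl are below that SD, which 31.4% of all 7020 genes reached. Under 4 alternatives Nebl no longer had opposite signs, and under 1, centring on cardiomyocyte markers, Ldb3 did not.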

How the results depend on the processing

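Of 45 member differences (9 members, 4 comparisons and the difference of responses), 34 kept their sign under every alternative run and 11 did not. The largest of these 11 was 0.23 in size (Ldb3 in the STIM1KO response, 0.10 when centred on cardiomyocyte markers). Not every alternative could change a member's value. Averaging over probes could not, since each member has 1 probe, nor could the filters or the fold cutoffs. Centring on cardiomyocyte markers subtracted from each array the median log2 level of the 10 markers that passed the filter. That level can shift without a like change in most markers. In the STIM1KO response the median difference of these 10 markers was 0.08. Yet the centring moved the median of all genes by up to 0.33, in that response, and every gene of a comparison alike. The counts at 1.5-fold in the other Z-disc and small heat shock lists were not rerun under it. Myot fell just short of 2-fold in the WT response with an offset before log2 (0.99), so that 0 members were called there. It lay below the 75th percentile filter, which left 0 members called in any comparison, and under 3-fold in the WT response and in the difference of responses (0 called in each). At 1.5-fold, 2 members were higher and 1 lower between the TAC arrays, and 2 were higher in the difference of responses. Quantile normalization over all probes with a value was added after seeing the data. So was, for the WT response and the sham arrays, normalization over the other 3 arrays without STIM1KO TAC. Neither changed a count of members at 2-fold. The first left 3 members with opposite signs in place of 4, without Nebl. The shares of all genes at 2-fold higher and lower moved with the scaling. They were 1.25% and 0.598% in the STIM1KO response and 0.883% and 1.08% between the TAC arrays. Median centring gave 0.997% and 0.798%, and 0.641% and 1.4%, and centring on cardiomyocyte markers 4.99% and 0.0855%, and 1.5% and 0.641%. With no filter on dim genes the WT response had 0.912% and 1.14%. No paired analysis was possible because each group is a single array.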
